A study of Mus musculus with 10 samples.

Results

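The HEB list of mouse embryonic stem cells (ESCs) treated with SB431542 (SB) held 2075 promoter-proximal regions that had no counterpart in the HEB list of untreated ESCs. A region was promoter-proximal when its smallest deposited distance to the 5′ end of a listed gene was at most 1000 bp, and a counterpart was any overlap of at least 1 bp. The 2075 regions were 43.6% of the 4756 promoter-proximal regions in the ESC+SB HEB list, which held 16769 regions in all. The 6 lists of the series held 78263 regions together. Because the regions were chosen by being listed in one library and not in the other, their ChIP heights and their absence from the ESC HEB list are described here and not tested. For brevity they are called the SB-listed promoter regions, and the 2681 promoter-proximal regions that did overlap an ESC HEB region are called the shared promoter regions.

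The chromatin came from CGR8, a mouse ESC line at passages 18 to 25, grown without feeder cells in serum and LIF, and from endoderm derived from it. The endoderm groups received 100 ng/ml Activin A at day 2 of serum-free differentiation and were taken at day 4. SB431542, which inhibits the type I receptor kinases of TGF-beta, activin and Nodal, was given at 10 µM for 24 hours to the ESC+SB group and for 48 hours, with Activin A, to the Endoderm+SB group, although the wording of the labels on that timing leaves room for another reading. HEB was profiled in all 4 of these states and SMAD2/3 in untreated ESCs and endoderm, with 1 ChIP library per group, and the 4 input libraries are seen here only as the background values beside each region. With 1 library per group no replicate spread was measurable, so each difference compares libraries and not conditions, and intervals cover counting error only. No expression data were at hand to check the identity of the cells.

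HEB, encoded by Tcf12, belongs to the E proteins, basic helix-loop-helix factors, and binds E-box sequences as a homodimer or with a tissue-specific partner, and Id proteins block E proteins by dimerising with them. SMAD2 and SMAD3 carry Nodal and activin signals from the receptors to chromatin, where they bind together with other transcription factors. Promoters of genes used in nearly all cells are often rich in CpG, open, and shared between neighbouring genes that are transcribed away from each other.

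Sequences just upstream of the gene start are shown for 4 of the SB-listed promoter regions of highest ChIP height, to let a reader see what kinds of promoter were listed. They are RefSeq sequence of GRCm38.p6, 250 bases ending at the base before the transcription start, while all other coordinates are in mm9 as deposited. Capitals mark 3 motifs searched on both strands, the E-box CANNTG, the SMAD motif CAGAC and the ETS motif CCGGAAG.
Refbp2 (RefSeq name Alyref2), chr1:171503228-171503477, plus strand: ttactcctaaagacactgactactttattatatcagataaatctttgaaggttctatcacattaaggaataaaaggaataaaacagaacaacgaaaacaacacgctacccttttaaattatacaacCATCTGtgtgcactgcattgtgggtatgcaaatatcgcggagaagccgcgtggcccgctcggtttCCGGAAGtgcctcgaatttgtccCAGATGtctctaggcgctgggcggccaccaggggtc
Psmg3, chr5:139826895-139827144, minus strand: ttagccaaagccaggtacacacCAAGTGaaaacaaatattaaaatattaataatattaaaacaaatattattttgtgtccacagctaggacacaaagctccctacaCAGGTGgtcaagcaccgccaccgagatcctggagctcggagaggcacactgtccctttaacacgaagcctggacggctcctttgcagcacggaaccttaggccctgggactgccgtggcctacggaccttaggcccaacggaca
Ddx46, chr13:55634749-55634998, plus strand: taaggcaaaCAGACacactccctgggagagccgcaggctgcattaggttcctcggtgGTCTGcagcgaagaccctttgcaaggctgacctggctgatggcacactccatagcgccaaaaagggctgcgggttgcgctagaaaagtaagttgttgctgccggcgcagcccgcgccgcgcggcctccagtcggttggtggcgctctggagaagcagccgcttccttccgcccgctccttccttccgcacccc
Zfand3, chr17:30004789-30005038, plus strand: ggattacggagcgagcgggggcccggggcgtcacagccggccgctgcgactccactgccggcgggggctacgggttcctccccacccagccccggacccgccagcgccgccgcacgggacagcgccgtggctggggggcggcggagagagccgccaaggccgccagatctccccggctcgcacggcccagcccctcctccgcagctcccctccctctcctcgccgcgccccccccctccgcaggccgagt
The Refbp2 stretch held 2 E-boxes and 1 ETS motif, and that of Psmg3 held 2 E-boxes, of which 1 had the CAGGTG form. Ddx46 had 2 SMAD motifs and no E-box, and Zfand3 had no match to any of the 3 motifs. Of all 32851 RefSeq promoter windows cut to the same 250 bases, 66.2% held an E-box, 42.2% a SMAD motif and 6.91% the ETS motif, so a match in one promoter is common for the first pair of motifs. GC content was 44.8% in Refbp2, 49.2% in Psmg3, 63.2% in Ddx46 and 79.2% in Zfand3, against a median of 52.4% over all windows. The windows of Eif2b1 and Gtf2h3, which share a single region described below, run into each other's gene and are not printed.

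The SB-listed promoter regions were low regions of their list. Their ChIP height, the deposited maximum of the ChIP signal with no stated scaling, had a median of 32.02 (95% CI 31.8 to 32.3) and a range of 28 to 138, where 28 is also the smallest height in the whole ESC+SB HEB list. Shared promoter regions had a median of 44.0 (43.4 to 44.8). Low height was not particular to promoters, since the 1922 regions away from promoters without an ESC HEB counterpart had a median of 31.5 (31.3 to 31.8). Of the SB-listed regions 73.1% lay below a height of 35 and 90.7% below 40, against 21.5% and 38.7% of the shared ones. Read the other way, 80.4% of the 731 promoter-proximal regions with a height from 28 to 30 had no ESC HEB counterpart, 44.2% of the 826 from 35 to 40, and 1.71% of the 993 at 50 or more. The ESC HEB list reached down to a height of 25.0.

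The reverse group was smaller. Of 3054 promoter-proximal regions in the ESC HEB list, 351 had no ESC+SB HEB counterpart, and 182 of these (51.9%) had a height below 28, under the smallest height that the ESC+SB list holds. The nearest ESC HEB region lay a median of 25060 bp from an SB-listed promoter region, and 169 regions (8.14%) had one within 1000 bp. Of the 2279 genes listed at SB-listed promoter regions, 574 (25.2%) were also listed for an ESC HEB region and 157 (6.89%) for one near a 5′ end. The ESC HEB list names a gene only up to 997 bp from a region, so more distant regions are not counted here. At both SB-listed and shared promoter regions of the ESC+SB list, 142 genes were listed. This takes separate regions of each kind within 1000 bp of a 5′ end of the gene, so the rule itself limits the count.

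Input DNA was dense at these promoters. The SB-listed promoter regions held a median of 154 ChIP tags (151 to 158) and 39 input tags (39 to 41), and shared promoter regions 242 and 46. Per kb of region the order was reversed, with 62.9 input tags (61.7 to 63.9) at SB-listed promoters, 54.0 (53.0 to 55.3) at shared promoters, 54.2 at the regions away from promoters without ESC HEB and 48.2 at the 10091 away from promoters with it. At least 60 input tags per kb were found in 55.3% of SB-listed promoter regions and in 40.7% of shared ones. ChIP tags per kb were lowest at SB-listed promoters, at 249.7 (247 to 252), against 305.2, 271.1 and 355.6 in the same order of the other groups. The deposited ratio of ChIP to input tags, here called tag enrichment, was lowest there too, at 4.00 (3.92 to 4.05) against 5.59, 4.87 and 7.86 in the same order of the other groups. It was below 4 in 49.9% of SB-listed and 22.6% of shared promoter regions. The part that input density plays in which regions were listed was not tested.

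**Figure D1:**
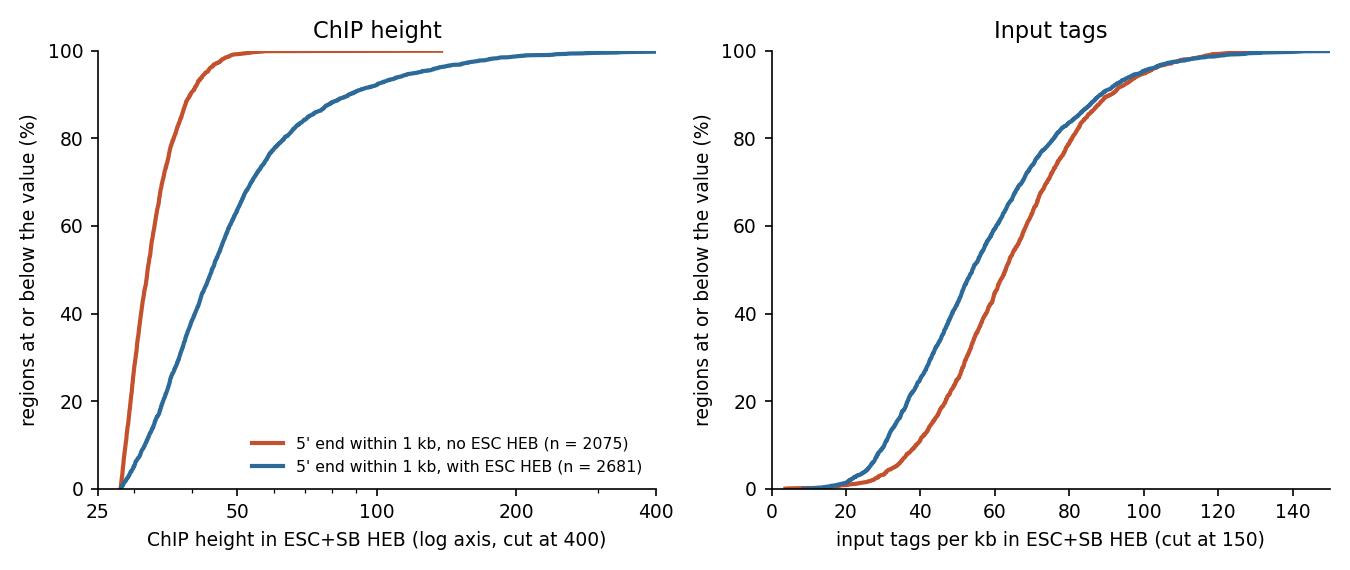
Cumulative share of promoter-proximal ESC+SB HEB regions (y axis, percent) by ChIP height (left, log axis) and by input tags per kb (right), for 2075 regions without and 2681 with an ESC HEB counterpart. The regions without a counterpart sit lower in height, with 90.7% below 40, and higher in input density, with 55.3% at 60 tags per kb or more.

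The regions were narrower than shared promoter regions and closer to the start. Their median width was 612 bp (599 to 630) against 791 bp for shared promoter regions, and 83.8% reached the 5′ end of a gene against 72.4%. Regions away from promoters were narrower still, at 445 bp (428 to 458) without an ESC HEB counterpart and 548 bp (542 to 556) with one. Just inside the distance limit lay Actg1, which encodes cytoplasmic gamma-actin, at 988 bp (height 54.6), Acbd4 at 992 bp (33.9) and Atp6v1b1, a subunit of the vacuolar proton pump, at 1000 bp (28.4). Just outside it lay Myog, the muscle regulator myogenin, at 1004 bp (28.7), 5133401N09Rik at 1004 bp (29.99) and Anp32a at 1026 bp (28.7). By chromosome, SB-listed regions made up between 38.6% (chromosome 3) and 51.2% (chromosome 18) of the promoter-proximal regions of an autosome. On chromosome X they were 6 of 28 (21.4%, 8.30 to 41.0).

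The 10 highest regions included several genes of RNA handling, translation and protein turnover. Refbp2, an RNA export adaptor, stood apart from all others at a height of 138 (chr1:173433131-173434533, reaching the start of the gene), with 607 ChIP tags over 69 input tags. Serping1, the complement C1 inhibitor, followed at 77.3 (chr2:84614754-84615351, 235 bp from the start of the gene), with 346 ChIP tags over 31 input tags. The other 8 lay between 53.3 and 57.4. Among them Snrpb, a core spliceosomal protein, had 161 ChIP and 25 input tags, and Ddx46, a helicase of pre-mRNA splicing, had 154 and 29. Psmg3, a proteasome assembly chaperone, had 152 ChIP and 37 input tags. The remaining regions of this set belonged to Eif2b1 with Gtf2h3, Actg1, Hspb8 (a small heat shock protein), Nup153 (a nuclear pore protein) and Zfand3.

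Their listing in the other lists differed. Refbp2 was listed in Endoderm+SB HEB at a height of 160 and in Endoderm HEB at 228, while the nearest ESC HEB region lay 24464 bp away. Psmg3 was in all 4 of the other lists, with heights of 28.6 in Endoderm+SB HEB, 47.2 in Endoderm HEB, 38.4 in Endoderm SMAD2/3 and 34.7 in ESC SMAD2/3. Nup153 was also in all 4, at 38.5, 32.6, 43.9 and 25.4 in that order. Serping1 and Hspb8 were in none. Heights of different libraries have no stated common scale and are given side by side only.

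Genes were grouped into 28 families by symbol, and counted over the 2279 genes at SB-listed and the 2619 at shared promoter regions. In 10 families of transcription, RNA processing, translation, folding, proteasomal turnover and respiration, a grouping made after the counts were seen, there were 184 genes (8.07%) at SB-listed and 116 (4.43%) at shared promoters, against 6.16% over both sets. In 3 families of developmental regulators, grouped in the same way, there were 13 (0.570%) and 106 (4.05%), against 2.42% over both. Genes at the 351 ESC HEB promoter regions without an SB counterpart numbered 368, of which 11 (2.99%) were in the first group and 6 (1.63%) in the second.

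In the transcription machinery, 26 genes of RNA polymerases, general factors and Mediator were listed at SB-listed promoters and 18 at shared ones. Med13, of the Mediator kinase module, had a height of 44.2, 469 bp from the 5′ end, and Polr2a, the largest subunit of RNA polymerase II, was another member. Splicing factors and hnRNPs were near balance at 18 and 17 genes, or 0.790% and 0.649% of the genes in each set. Among them were Snrpb and Sfrs1, an SR protein, the latter with a height of 40.3 and 254 ChIP against 33 input tags. DEAD/DEAH-box RNA helicases numbered 10 and 5, with Ddx46 and, at a region shared with 1110008J03Rik, Ddx54 (41.4).

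Most translation families had more genes at SB-listed than at shared promoters. Mitochondrial ribosomal proteins had as many, or 0.702% and 0.611% of the genes in each set. Cytosolic ribosomal proteins numbered 23 at SB-listed and 14 at shared promoters, with no gene in both. Rpl8 (chr15:76734287-76734746) had a height of 50.0 with 143 ChIP and 31 input tags, and Rpl10a (chr17:28465309-28465848) 44.4 with 171 and 53. Both are proteins of the large ribosomal subunit, and both regions reached the 5′ end. Genes with symbols of initiation, elongation and termination factors numbered 23 and 11. They hold regulators such as the eIF4E-binding proteins Eif4ebp1 and Eif4ebp2, the kinase Eif2ak1 and the Argonaute gene Eif2c1 beside factors proper, including Eif2b1, a subunit of the exchange factor for eIF2, and Etf1, the release factor (46.3). Aminoacyl-tRNA synthetases numbered 9 and 4, including mitochondrial Aars2 (41.8), and mitochondrial ribosomal proteins 16 and 16, including Mrpl15 (52.3) and Mrps27 (43.6).

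Proteasome genes showed the widest ratio among the 10 families, with 18 at SB-listed and 3 at shared promoters. They held subunits of the core particle such as Psma1 (46.0, 128 ChIP and 40 input tags) and Psmb5, subunits of the regulatory particle such as Psmd2, and the assembly chaperones Psmg2 and Psmg3. Ubiquitin enzymes, counted outside the 10 families, numbered 19 and 15, with the conjugating enzyme Ube2z at 42.0 and the deubiquitinase Usp12 at 42.0. Heat shock proteins and chaperonins numbered 15 and 12, a count by symbol that left out Hspb genes such as Hspb8 in both sets. Among those counted were Hsp90ab1, the constitutive cytosolic Hsp90 (46.1), and Cct4 of the cytosolic chaperonin (45.1). Respiratory chain and ATP synthase genes numbered 26 and 16, with the ATP synthase subunits Atp5a1 (46.1) and Atp5d (44.2) highest.

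The remaining families did not share one direction. Rab GTPases of vesicle traffic numbered 13 at SB-listed and 4 at shared promoters, with Rab12 (39.8) and Rab31 (38.2) highest. Solute carriers numbered 30 and 49 (1.32% and 1.87% of the genes in each set), with Slc44a2 at 46.2. Zinc finger genes numbered 49 and 61 (2.15% and 2.33%), with Zfp148 at 48.9. SB-listed regions were 44.1% of the promoter-proximal regions of zinc finger genes, near the 43.6% of all such regions. Zfp148 was also listed for SMAD2/3, at 112 in endoderm and 53.0 in ESCs. MicroRNA genes numbered 10 and 33, including a region next to both Mir96 and Mir183 (37.7). Genes with cell cycle symbols numbered 24 and 17, among them Anapc10, of the anaphase-promoting complex, at a region shared with Abce1 (39.0).

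**Figure D2:**
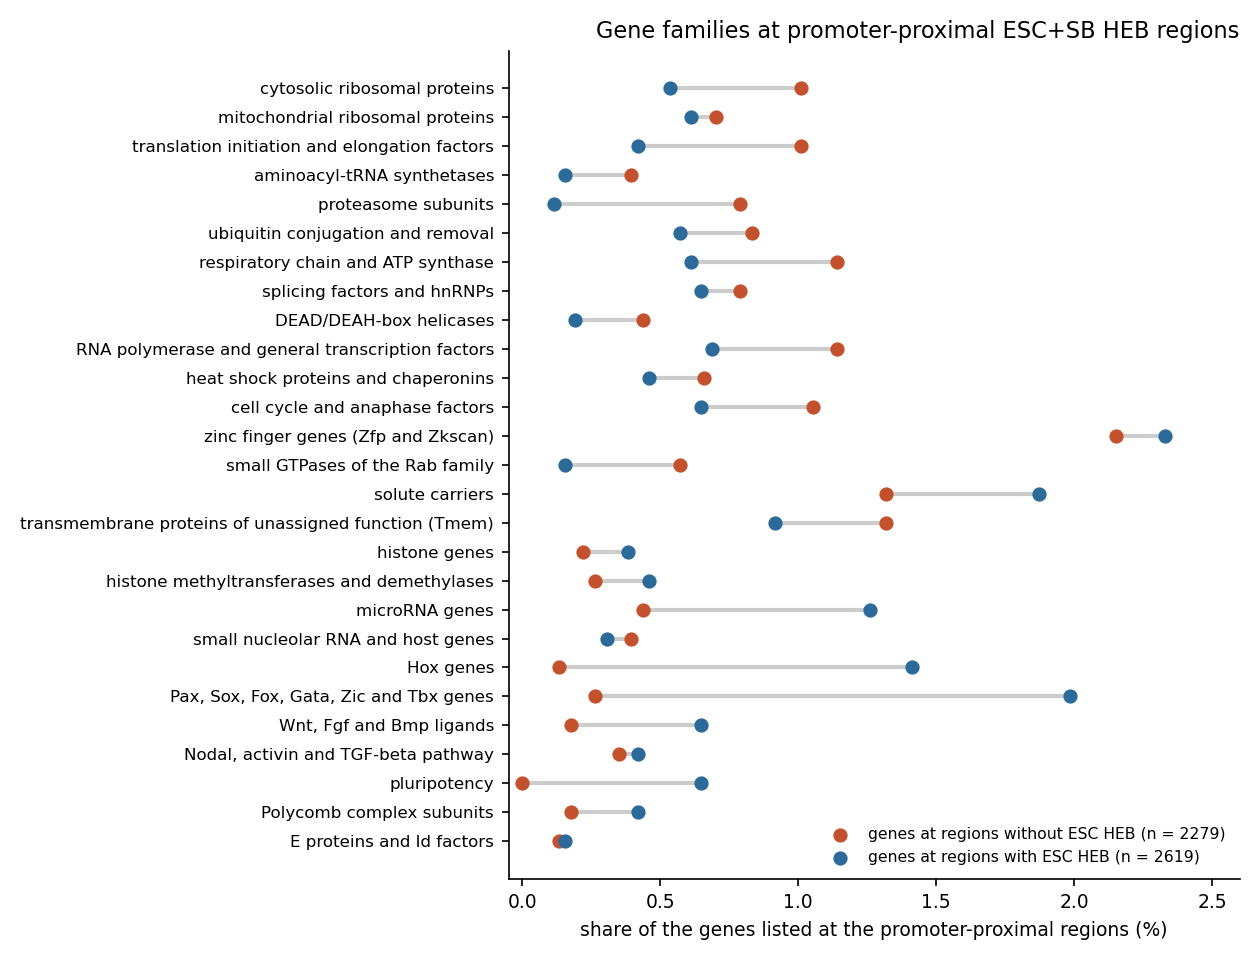
Share of genes in 27 symbol families (x axis, percent) among the 2279 genes at promoter-proximal ESC+SB HEB regions without an ESC HEB counterpart and the 2619 at regions with one. The 18 proteasome genes against 3, and the 3 Hox genes against 37, lie far apart in opposite directions, and the olfactory and vomeronasal receptor family is left out because no gene of it was listed in either set.

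Developmental regulators were scarce at SB-listed promoters. Hox genes numbered 3 (Hoxa9, Hoxb5 and Hoxc4) against 37 at shared promoters, and Pax, Sox, Fox, Gata, Zic and Tbx genes 6 against 52. Hoxc4 had a height of 38.9 over a region of 2095 bp with 554 ChIP and 63 input tags, and Hoxb5 38.1 at 908 bp from the 5′ end, with an ESC HEB region 110 bp away. Wnt, Fgf and Bmp ligands numbered 4 (Bmp2, Bmp6, Fgf3 and Fgf9) against 17, with Fgf9 at 47.1 and an ESC HEB region 1943 bp from it. None of the 25 pluripotency symbols was matched at an SB-listed promoter, and 17 were matched at shared promoters. The list holds Lin28a, and the older symbol Lin28 used in the regions was not matched to it. Lin28 did have an SB-listed promoter region, with a height of 40.4, 424 bp from the 5′ end.

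The input values of these groups differed as well. The 186 regions of the 10 families had a median of 73.0 input tags per kb (71.1 to 76.9) and a tag enrichment of 3.52 (3.36 to 3.75), at a height of 32.3. The 13 regions of the developmental families had 32.1 input tags per kb (28.7 to 49.6) and a tag enrichment of 6.98 (3.83 to 10.4), at a height of 32.5. Among genes at regions of tag enrichment below 4, the 10 families made up 10.4% at SB-listed (8.73 to 12.3) and 8.69% at shared promoters (6.68 to 11.1), and these intervals overlap. From 4 to 6 the shares were 5.65% (4.15 to 7.48) and 4.19% (2.98 to 5.71), which overlap too. At 6 or more they were 5% (2.88 to 7.99) and 1.86% (1.15 to 2.83), which do not. The developmental families made up 2.81% (1.29 to 5.27) and 8.23% (6.69 to 9.99) at 6 or more, and 0.252% and 0.589% below 4. By ChIP height the 10 families made up 7.67% (6.18 to 9.37) and 3.69% (1.92 to 6.36) from 28 to 32, with intervals that just overlap. The shares were 7.29% (5.71 to 9.13) and 2.86% (1.804 to 4.31) from 32 to 40, and 13.96% (9.69 to 19.2) and 5.13% (4.12 to 6.32) at 40 or more, with intervals apart in both ranges. In the upper 50% of the ESC+SB HEB list by tag enrichment lay 11 of the 186 regions (5.91%) and 8 of the 13. Both groupings were made after the family counts were seen, and the intervals cover counting error only. Whether intervals overlap is therefore a description and not a test. The part of input density in the family counts was not tested.

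Of 45 genes of the Nodal, activin and TGF-beta pathway, 8 were listed at SB-listed promoters and 11 at shared ones. SB-listed regions were 34.8% of the pathway's promoter-proximal regions, against 43.6% of all such regions, and the genes below are given for their own values. Among ligands, Gdf3 had a height of 31.1 (chr6:122559512-122560217) with an ESC HEB region 526 bp away, and Tgfb3 29.6. The type I receptor gene Acvr1c, which encodes a receptor of the kind SB inhibits, was at 28.01, next to the smallest height of the list. The signal transducers Smad4 (36.9), Smad3 (30.8) and Smad1 (36.4), the last a transducer of BMP signals, were listed at regions reaching the 5′ end. Smurf1 (31.4), a ubiquitin ligase that acts on SMADs, was listed at such a region too. Bambi, a pseudoreceptor that dampens the pathway, had 228 ChIP and 50 input tags at a height of 34.9. It was the only one of the 8 listed in all 4 other lists, at 30.9 in Endoderm+SB HEB, 25.6 in Endoderm HEB, 86.4 in Endoderm SMAD2/3 and 43.1 in ESC SMAD2/3. Smad3 was in the 3 endoderm lists, at 26.0, 26.8 and 33.2 in the same order, and Acvr1c, Smurf1 and Tgfb3 were in none of the 4.

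HEB's own gene was among the SB-listed promoters. The Tcf12 region (chr9:71958374-71960107) was 1733 bp wide, reached the 5′ end, and had a height of 33.9 with 294 ChIP and 50 input tags. It overlapped Endoderm+SB HEB at a height of 25.7 and Endoderm SMAD2/3 at 41.2, and the nearest ESC HEB region lay 162394 bp away. Of the Id genes, whose products inhibit E proteins, Id4 had a height of 32.9 with an ESC HEB region 7550 bp away and Id1 30.3 with one 543 bp away. Neither overlapped another list. These were 3 of 8 symbols on the E protein and Id list, which holds Tcf3 also under its older symbol Tcfe2a, and 4 were listed at shared promoters. SB-listed regions were 42.9% of that list's promoter-proximal regions, near the 43.6% of all.

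Polycomb genes gave 4 of 29 at SB-listed promoters and 11 at shared ones. SB-listed regions were 22.2% of their promoter-proximal regions, against the same 43.6%. Suz12, a core subunit of Polycomb repressive complex 2, had a height of 29.6 (chr11:79806002-79806930) and its accessory subunits Jarid2 and Phf1 had 32.04 and 28.1. Pcgf6, of a Polycomb repressive complex 1 variant, had 32.5 and was the only one in another list, at 25.7 in Endoderm+SB HEB and 30.5 in Endoderm SMAD2/3. Jarid2 had an ESC HEB region 1319 bp away, and for Suz12 the nearest was 138479 bp away.

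Regions listed for more than 1 gene were more frequent than at shared promoters. Of the 2075 regions, 262 (12.6%, 11.2 to 14.1) were listed near the 5′ ends of 2 or more genes, against 184 of 2681 (6.86%, 5.93 to 7.89) and 9.38% of all promoter-proximal regions. A pair of genes was named at 260 of them, 3 genes at the region of 1810035L17Rik, Alkbh1 and Nrp, and 4 at that of Gm13363, Ptp4a1, Gm15801 and Gm8783. The region reached the 5′ end of each of its genes in 159 of the 262 (60.7%). Input tags per kb had a median of 69.4 (66.8 to 72.6) at these regions and 61.7 (60.5 to 63.0) at those of 1 gene, and tag enrichment was 3.56 and 4.05. In the upper 50% of the list by tag enrichment only 6.17% of the SB-listed promoter regions were listed for 2 or more genes. Heights differed little, at 32.5 (31.9 to 33.1) and 31.97 (31.8 to 32.2).

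The highest of these regions lay between Eif2b1 and Gtf2h3, a subunit of the general factor TFIIH (chr5:125028848-125029292). It had a height of 57.1 with 176 ChIP tags and 55 input tags, or 124 input tags per kb, and a tag enrichment of 3.20. It was listed in all 3 endoderm lists, at 49.2 in Endoderm+SB HEB, 42.2 in Endoderm HEB and 39.7 in Endoderm SMAD2/3. Next came 1700001C19Rik with AI661453 (51.4), 4930581F22Rik with St3gal4 (49.4), BC046404 with Mmgt2 (48.7) and Iscu with Sart3 (48.4). Iscu encodes the scaffold of iron-sulfur cluster assembly, and this region was in all 3 endoderm lists, at 54.8, 30.2 and 34.1 in the order given for Eif2b1. Another SB-listed region of Iscu and Sart3, at a height of 37.3, was in none of the other lists. At 51 of the 262 regions at least 1 gene was in the 10 families, against 186 of all 2075 SB-listed promoter regions. A region listed for more genes has more chances to hold such a gene, so no difference is read from these counts. At 3 regions 2 genes were in the 10 families: Eif2b1 with Gtf2h3, Hars with Hars2, the cytosolic and mitochondrial histidyl-tRNA synthetases (35.7), and Mrpl47 with Ndufb5 (29.7).

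**Figure D3:**
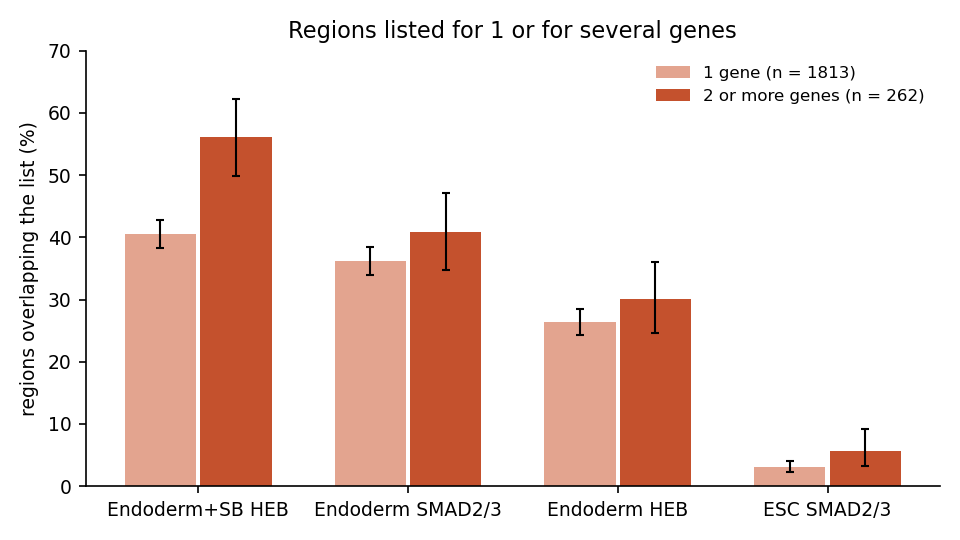
Share of the 2075 SB-listed promoter regions that overlapped each of 4 other lists (y axis, percent, with 95% binomial intervals), for 1813 regions listed for 1 gene and 262 listed for 2 or more. The gap is widest for Endoderm+SB HEB, at 40.5% and 56.1%.

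Many SB-listed promoter regions were listed again in differentiated cells. Of the 2075, 881 (42.5%, 40.3 to 44.6) overlapped an Endoderm+SB HEB region, against 22.7% of all ESC+SB HEB regions. Overlap was 36.7% with Endoderm SMAD2/3 (762 regions, 34.6 to 38.8; all ESC+SB HEB regions 22.9%) and 26.8% with Endoderm HEB (557, 24.9 to 28.8; all 33.1%). With ESC SMAD2/3 it was 3.42% (71 regions, 2.68 to 4.30; all 18.8%). Shared promoter regions overlapped the same lists in 45.7%, 42.7%, 55.5% and 16.0%. Regions away from promoters without an ESC HEB counterpart did so in 11.6%, 14.6%, 15.9% and 2.29%. With the other lists shortened to their 4111 regions of highest height, the length of the shortest list, overlap of SB-listed promoter regions was 7.08% for Endoderm+SB HEB, 7.61% for Endoderm SMAD2/3 and 0.289% for Endoderm HEB. Overlap with the shortened lists was not computed for shared promoter regions or for all ESC+SB HEB regions. The full Endoderm+SB HEB and Endoderm SMAD2/3 lists held 34.5% and 30.3% promoter-proximal regions, and Endoderm HEB 15.1%.

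**Figure D4:**
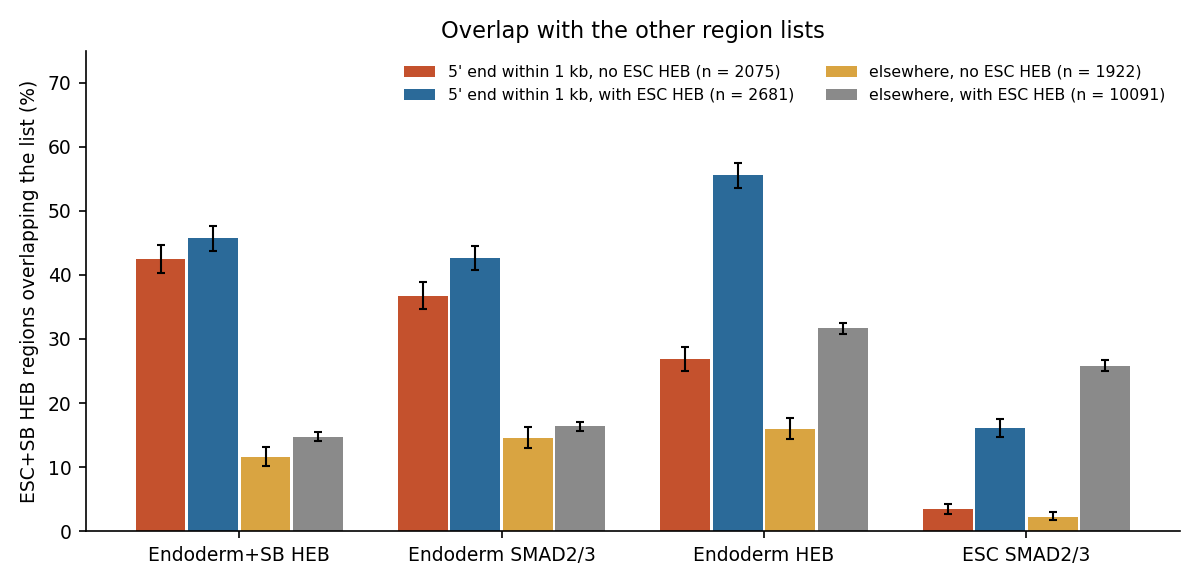
Share of ESC+SB HEB regions that overlapped each of 4 other lists (y axis, percent, with 95% binomial intervals), by distance to a 5′ end and by an ESC HEB counterpart. Regions within 1 kb without a counterpart stand near those with one for Endoderm+SB HEB (42.5% and 45.7%) and apart from them for Endoderm HEB (26.8% and 55.5%).

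At equal ChIP height the order changed for Endoderm+SB HEB, and less so for Endoderm SMAD2/3. Weighted to the heights of the SB-listed regions, shared promoter regions overlapped Endoderm+SB HEB in 29.8%, below the 42.5% of SB-listed ones, and Endoderm SMAD2/3 in 32.4%, below 36.7%. Overlap with Endoderm HEB was 36.9%, above 26.8%, and with ESC SMAD2/3 6.59%, above 3.42%. In heights from 28 to 30, Endoderm+SB HEB was overlapped by 30.4% of SB-listed (26.7 to 34.3) and 19.6% of shared promoter regions (13.4 to 27.0). From 40 to 50 the shares were 65.0% (57.5 to 72.0) and 51.3% (47.4 to 55.2). For Endoderm SMAD2/3 the intervals overlapped in each of the 6 ranges of height, with 26.7% and 26.6% from 28 to 30, 28.9% and 26.3% from 30 to 32, and 57.6% and 47.6% from 40 to 50. For Endoderm HEB the shares were 15.3% (12.5 to 18.5) and 25.9% (18.9 to 33.9) from 28 to 30. They were near each other from 40 to 50, at 55.4% (47.7 to 62.8) and 56.9% (53.0 to 60.7), and at 50 or more, at 76.5% (50.1 to 93.2) and 70.6% (67.6 to 73.4).

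**Figure D5:**
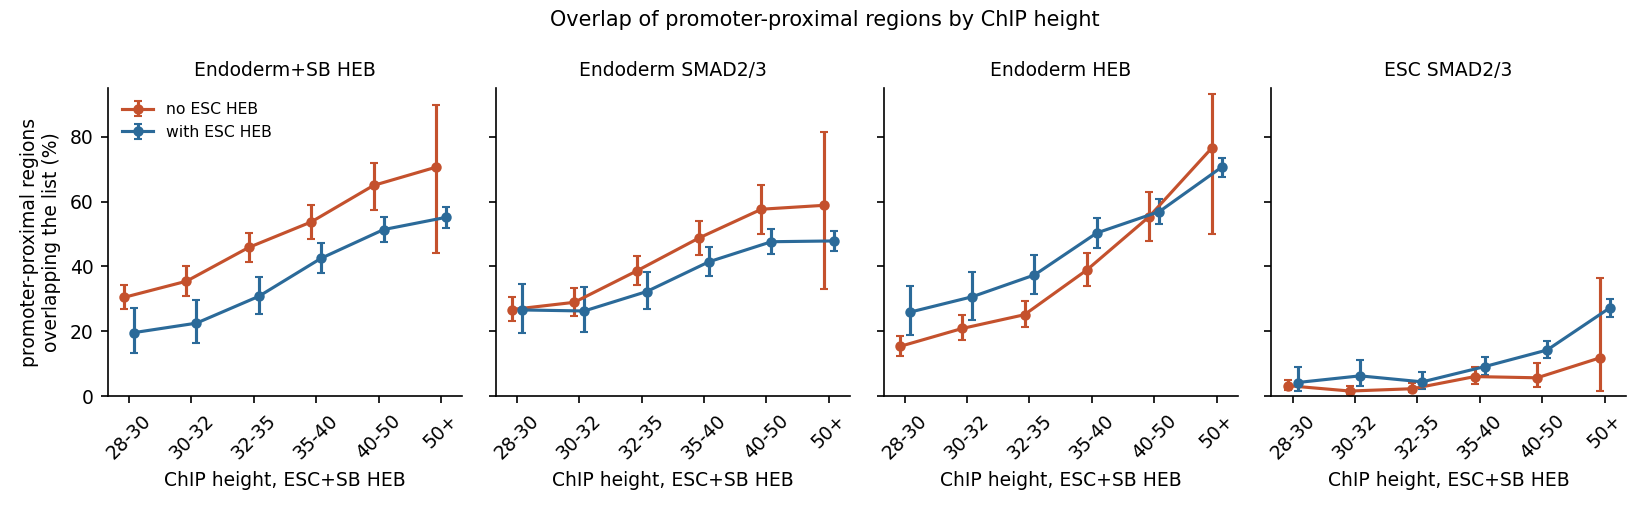
Share of promoter-proximal ESC+SB HEB regions that overlapped each of 4 other lists (y axis, percent, with 95% binomial intervals), by ChIP height in ESC+SB HEB, for regions without and with an ESC HEB counterpart. In the panel of Endoderm+SB HEB the regions without a counterpart lie above the others in each range of height, and the last range holds only 17 of them.

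The lists overlapped one another at these promoters and at the other ESC+SB HEB regions. Of the 881 regions in Endoderm+SB HEB, 464 (52.7%) were also in Endoderm SMAD2/3, against 298 of the other 1194 (25.0%). The same shares were 67.9% and 21.4% at shared promoter regions. Away from promoters they were 51.1% and 9.77% without an ESC HEB counterpart, and 55.3% and 9.63% with one. All 3 endoderm lists covered 260 SB-listed promoter regions (12.5%), all 4 other lists 20 (0.964%), and none of the 4 800 (38.6%). At shared promoter regions these shares were 26.4%, 7.35% and 27.5%. Endoderm+SB HEB alone was overlapped by 287 SB-listed promoter regions and Endoderm SMAD2/3 alone by 199. The labels give a single input library for untreated endoderm, which served both Endoderm HEB and Endoderm SMAD2/3 as far as the labels show. Listings in Endoderm HEB and in Endoderm SMAD2/3 are therefore not independent of each other. The Endoderm+SB group had an input library of its own.

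The overlapped regions were also placed within the other lists. They were 8.71% of the Endoderm+SB HEB list and 25.2% of its promoter-proximal regions, and 6.91% and 22.6% of Endoderm SMAD2/3. The median height of the overlapped Endoderm+SB HEB regions was 30.7, against 34.5 in that whole list and 31.1 (30.9 to 31.4) in its promoter-proximal regions. Their input density was 40.2 tags per kb, against 31.4 and 37.6 (37.1 to 38.1). In Endoderm SMAD2/3 the overlapped regions had a height of 31.1 and 38.9 input tags per kb, against 34.4 and 33.1 in that whole list. Across the 881 regions, Spearman's rho between ESC+SB HEB and Endoderm+SB HEB was 0.20 for height and 0.50 for input tags per kb, given as a description over regions of the same pair of libraries. Among the 186 regions of the 10 families 59.1% (51.7 to 66.3) overlapped Endoderm+SB HEB and 41.9% (34.8 to 49.4) Endoderm SMAD2/3.

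Single regions showed the range of input values. The densest input lay at 2610002I17Rik with 93 input and 190 ChIP tags (138 input tags per kb), at Nop56 with Snord110 (134) and at Cdca5 with Zfpl1 (134). Nop56 is a core protein of the box C/D small nucleolar ribonucleoprotein. The sparsest lay at Pcdh19, a protocadherin, with 3 input and 146 ChIP tags (3.73 per kb), at Kcnj8, a potassium channel subunit, with 2 and 81 (4.64), and at Meis2, a homeobox gene, with 3 and 131 (7.11). All of these had heights between 28.4 and 35.9, and none of the 3 sparse regions was in another list.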

How the data were processed

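The authors deposited 1 list of enriched regions for each of the 6 ChIP libraries. CASAVA 1.8.2 and the mm9 build are named in the submitters' processing notes. The aligner, peak caller, thresholds and annotation were not given in the sources used here. Per the file headers, each region has a count of ChIP tags and of background (input) tags, the maximum height of the ChIP and background signal with no stated scaling, and distances in bp to a gene and its 5′ end. The deposited ratio of the tag counts is called tag enrichment, and in some regions a floor stands in for the background count. Coordinates are printed as deposited. In the ESC+SB HEB list the regions held 4508630 ChIP and 623593 input tags, and whole-library totals were not at hand.

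Regions with more than 1 listed gene entered once. Overlaps of at least 1 bp were computed in Python 3.11.15 (pandas 2.3.3, SciPy 1.17.1). The 30 ordered pairs of lists gave the same counts with bedtools 2.31.1, and 1500 of 1500 overlaps planted among 4000 simulated regions were recovered. Shares have exact Clopper-Pearson 95% intervals and medians have 95% intervals from binomial order statistics, for counting error only. No p-value was computed. Overlap at equal height weights 6 ranges of ChIP height by the number of regions without an ESC HEB counterpart.

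Members, families and lists were chosen with earlier results of these data known. Named regions were the 10 highest, the 2 highest of each family, the 5 highest listed for 2 or more genes, the 5 highest in both Endoderm+SB HEB and Endoderm SMAD2/3, the 3 highest in no other list, all in the Nodal, Polycomb, pluripotency and E protein lists, those nearest the distance limit, and the 3 of most and fewest input tags per kb. Polr2a, Psmb5, Psmd2, Psmg2, Eif4ebp1, Eif4ebp2, Eif2ak1, Eif2c1 and Lin28 were named after their values were seen. So were genes named to complete a short count. RefSeq promoter windows matched 1778 of 2279 genes (78.0%, by symbol or a single synonym), under the 80% needed, so a comparison of motifs or base content over the regions is void. Printed windows left out those that another RefSeq gene enters. Alternatives were another distance, overlap, height, enrichment and list length.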

Additional observations from a re-analysis of the deposited data

How the results depend on the processing

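All of these values come from 1 library per group, heights have no stated scale, and a region missing from a list can lie just under that list's limit. Of 52 values of 8 results under 7 alternatives, 28 stayed within their interval or, for counts, within 1.5 times, including every one with a distance limit of 500 bp or with no ESC HEB region within 1 kb. Requiring the region to reach the 5′ end gave 42 input tags, 45.1% in Endoderm+SB HEB and 14.3% listed for 2 or more genes. Requiring overlaps of at least 50% of the region gave a median height of 32.5, 42 input tags and 39.6% in Endoderm+SB HEB. A ChIP height of at least 40 left 194 regions by construction, with a median height of 43.2, overlaps of 65.5% with Endoderm+SB HEB, 57.7% with Endoderm SMAD2/3, 57.2% with Endoderm HEB and 6.19% with ESC SMAD2/3, and 14.9% listed for 2 or more genes. The upper 50% of tag enrichment left 227 regions, with a median height of 33.4, 21 input tags, overlaps of 33.5%, 33.5%, 31.3% and 2.64% in the same order, and 6.17% listed for 2 or more genes. With the other lists shortened to their 4111 regions of highest ChIP height, overlaps were 7.08% for Endoderm+SB HEB, 7.61% for Endoderm SMAD2/3 and 0.289% for Endoderm HEB. Beyond what follows by construction, the cause of the moved values was not tested. Of 168 counts of family genes, chosen as alternatives after seeing the data, 55 moved by over 1.5 times. Most of the moved counts were under the settings that left 194 and 227 regions, where fewer genes were there to count. No paired analysis was possible because each group has 1 library and no test was made.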
